A study of Mus musculus with 6 samples.

Results

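The loci described here are the annotated microRNA and small nucleolar RNA (snoRNA) rows of a brainstem RNA sequencing table that reached a readable level. They are the rows whose gene symbol starts with Mir or Mirlet and a digit, or with Snora or Snord and a digit, and whose mean over the 6 libraries was at least 0.1 CPM, the reads of a row per 1000000 reads of its library. Of the 18058 rows of the table, 79 carried such a symbol and 30 of these reached the level, so the members were chosen by their measured mean, and their levels are given as a description without a test. The 30 comprised 18 microRNA rows, 6 long transcripts named as microRNA hosts (symbols ending in hg) and 6 snoRNA rows. The 3 rows just above the level were Snord35b, Mir6240 and Mir5125, with means of 0.134, 0.121 and 0.121 CPM, and the 3 just below it were Mir568, Snord42b and Snord4a, with means of 0.0988, 0.0943 and 0.0923 CPM. For 1 member, Mir6240, the mean of the libraries labelled Rag1-/- alone was under 0.1 CPM, and for 0 members was the WT mean under it.

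The samples were snap-frozen whole brainstems of mice at 1 month of age, 3 wild type (WT, C57BL/6J) and 3 Rag1-/- (B6.129S7-Rag1tm1Mom/J), each from an independent mouse that had received no implanted cells. The Rag1-/- strain carries a targeted germline mutation of Rag1, the gene of an antigen receptor recombinase subunit, and such mice lack mature T and B cells in every tissue. The comparison of the genotypes asked which brainstem transcripts differ between WT mice and a strain used as host for human low-grade glioma cells. RNA was extracted from bulk tissue, so fewer cells of a type and less RNA per cell cannot be told apart.

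MicroRNAs are cut from hairpins within longer primary transcripts by Drosha with Dgcr8 and then by Dicer1, and the mature strand, of which bases 2 to 8 form the seed, guides an Argonaute protein to messenger RNAs. SnoRNAs are mostly trimmed from introns of host genes. Box H/ACA snoRNAs guide pseudouridylation and box C/D snoRNAs guide ribose methylation, chiefly of ribosomal RNA. In brain, miR-124 and miR-9 are known for their abundance in neurons and neural progenitors. The extraction kit was the RNeasy Mini Kit, whose columns keep mainly longer RNA, and the library kit is not given in the sources used here. A value below therefore counts reads placed on the interval of a row, and is no measure of the mature small RNA.

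The mature sequences below are those of the 5 most abundant microRNA rows with a matched sequence outside a nested host, of nested rows whose ratio to the host moved most, and of miR-9 and miR-22, which lie within members that are host transcripts. They are from RefSeq (GRCm38.p6), and the capitals mark the seed.
mmu-miR-6236: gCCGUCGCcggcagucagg
mmu-miR-8114: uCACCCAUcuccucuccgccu
mmu-miR-682: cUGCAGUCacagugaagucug
mmu-miR-8112: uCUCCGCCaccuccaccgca
mmu-miR-703: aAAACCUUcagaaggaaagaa
mmu-miR-1249-3p: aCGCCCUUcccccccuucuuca
mmu-miR-3113-3p: uCCUGGCCcugguccugguc
mmu-miR-5130: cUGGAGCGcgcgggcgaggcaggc
mmu-miR-9-5p: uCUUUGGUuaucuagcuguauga
mmu-miR-22-3p: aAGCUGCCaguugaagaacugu
RefSeq gave 19 mature sequences for 17 of the 18 microRNA rows, and they held 19 different seeds, so no seed was shared. What many of them shared was sequence with other genes. The mature sequence stood whole in a GENCODE messenger RNA for 10 of the 17 rows, with miR-8114 in Glul, miR-682 in Rpl37a, miR-703 in Eef1a1, miR-8112 in Krcc1 and miR-5130 in Kctd12. The whole hairpin held an exact run of at least 25 bases of a messenger RNA in 10 of 18 rows (55.6%) and of any longer transcript of another gene in 15 of 18 (83.3%). Among 1156 other mouse microRNA genes of GENCODE these shares were 10.1% and 22.3%, and among the 24 microRNA rows of the table under 0.1 CPM they were 29.2% and 70.8%. These shares are given as a description. Reads from such a run can come from the longer transcript, and how the counting divided them is not given in the sources used here.

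The sequences of 4 of the 6 snoRNA rows are shown, with the letters of the boxes that define the classes. Snora28 was the most abundant, Snora81 had the smallest p, Snora65 is a further box H/ACA RNA and Snord104 a box C/D RNA. They are from GENCODE M21 (mm10), which gives some of them more bases than the table does.
Snora28: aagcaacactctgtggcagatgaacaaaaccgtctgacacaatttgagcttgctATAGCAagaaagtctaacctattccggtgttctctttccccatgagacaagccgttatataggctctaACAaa
Snora65: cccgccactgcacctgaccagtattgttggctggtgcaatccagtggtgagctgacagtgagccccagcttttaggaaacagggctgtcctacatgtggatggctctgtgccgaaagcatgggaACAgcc
Snora81: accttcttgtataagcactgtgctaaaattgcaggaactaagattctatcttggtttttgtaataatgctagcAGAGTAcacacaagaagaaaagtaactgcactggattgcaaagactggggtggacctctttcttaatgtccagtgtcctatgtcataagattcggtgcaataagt
Snord104: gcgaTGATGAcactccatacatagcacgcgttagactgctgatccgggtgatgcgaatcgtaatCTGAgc
Capitals mark the letters searched on the RNA's own strand. In Snora28 and Snora65 they are ACA with 2 to 5 bases after it, and in Snora28 also ANANNA at least 45 bases from either end, the letters of the H box. In Snora81 they are the first of 6 matches to ANANNA, some of which overlap. Snora81 had no ACA and Snora65 no ANANNA in these windows, whereas Snora7a had both. In Snord104 they are TGATGA within the first 20 bases and CTGA within the last 16, and Snord35b had CTGA but not TGATGA there. Of 42 Snora transcripts of GENCODE 95.2% held ACA and 95.2% held ANANNA in these windows, and of 98 Snord transcripts 71.4% held TGATGA and 94.9% CTGA. A match is a description of the letters.

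Depth was estimated from the step that 1 read makes among low values, and lay between 31600000 and 46400000 reads per library. A level of 3 reads, the limit that a count of 0 allows, was 0.0646 to 0.0862 CPM in WT libraries and 0.0854 to 0.0950 CPM in the others, for counting error only. Of the 30 members, 15 had fewer than 60 reads over all 6 libraries together and 9 had at least 1 library at or under 3 reads. The Rag1 row itself stood at 0.236, 0.388 and 0.115 CPM in WT. With the Rag1-/- label it was higher, with values of 2.60, 4.02 and 2.90 CPM. The log2 fold change was 3.30 (SE 0.31, limma-trend adjusted p = 0.012). The strain carries a mutated Rag1 gene, and the row does not show on which part of it these reads lie. The level alone therefore cannot decide whether the label holds, which was not tested. The libraries with that label are called Rag1-labelled libraries from here on. Summed B cell markers (2 of 4 at 0.1 CPM or more) were lower in these libraries, at 0.444 to 0.627 CPM against 0.661 to 0.978 CPM in WT without overlap, which is the direction of the label, whereas summed T cell markers (1 of 4) overlapped, at 0.260 to 0.513 and 0.173 to 0.805 CPM. Xist was at 171.5, 177.4 and 2.93 CPM in WT and at 0.462 to 0.738 CPM in the Rag1-labelled libraries, so it exceeded 100 CPM in WT replicates 1 and 2 only. Mice of both sexes were used in the study. The term for Xist used below marks those WT libraries. A fit with it therefore sets the Rag1-labelled libraries against WT replicate 3 alone, and only its effect sizes are given. Summed oligodendrocyte markers (3 of 3 at 0.1 CPM or more) were 15480 to 18347 CPM in WT and 20188 to 21737 CPM in the Rag1-labelled libraries, without overlap, and summed astrocyte markers (3 of 3) were 717 to 833 and 800 to 824 CPM. All 5 neuronal markers were above 0.1 CPM, with sums of 2483 to 2676 CPM in WT and 2420 to 2563 CPM in the Rag1-labelled libraries. All 5 hindbrain Hox markers were above it too, with the Hox sum at 2.03 CPM in Rag1-labelled replicate 2 and at 10.6 to 36.7 CPM elsewhere. Pituitary markers (4 of 4) summed to 654 CPM in WT replicate 3 and to 2.02 to 56.5 CPM elsewhere. Choroid plexus markers summed to 938 and 1191 CPM in WT replicates 1 and 2 and to 460 to 603 CPM elsewhere. Red blood cell markers summed to 1813 CPM in WT replicate 3 and to 623 to 1379 CPM elsewhere. The part of these differences in the results below was not tested, beyond the fits without single libraries.

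The levels of the 30 loci spanned 3 orders of size and most lay near the limit of detection. Mean levels ran from 0.121 CPM for Mir5125 to 149 CPM for Mir6236 among microRNA rows, from 0.146 to 29.2 CPM among host transcripts, and from 0.134 to 0.423 CPM among snoRNA rows. The 23 members under 1 CPM had a median standard error of 0.30 on the log2 scale, against 0.090 for the 7 members at or above it, so a change of the low loci was hard to detect at this depth.

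**Figure D1:**
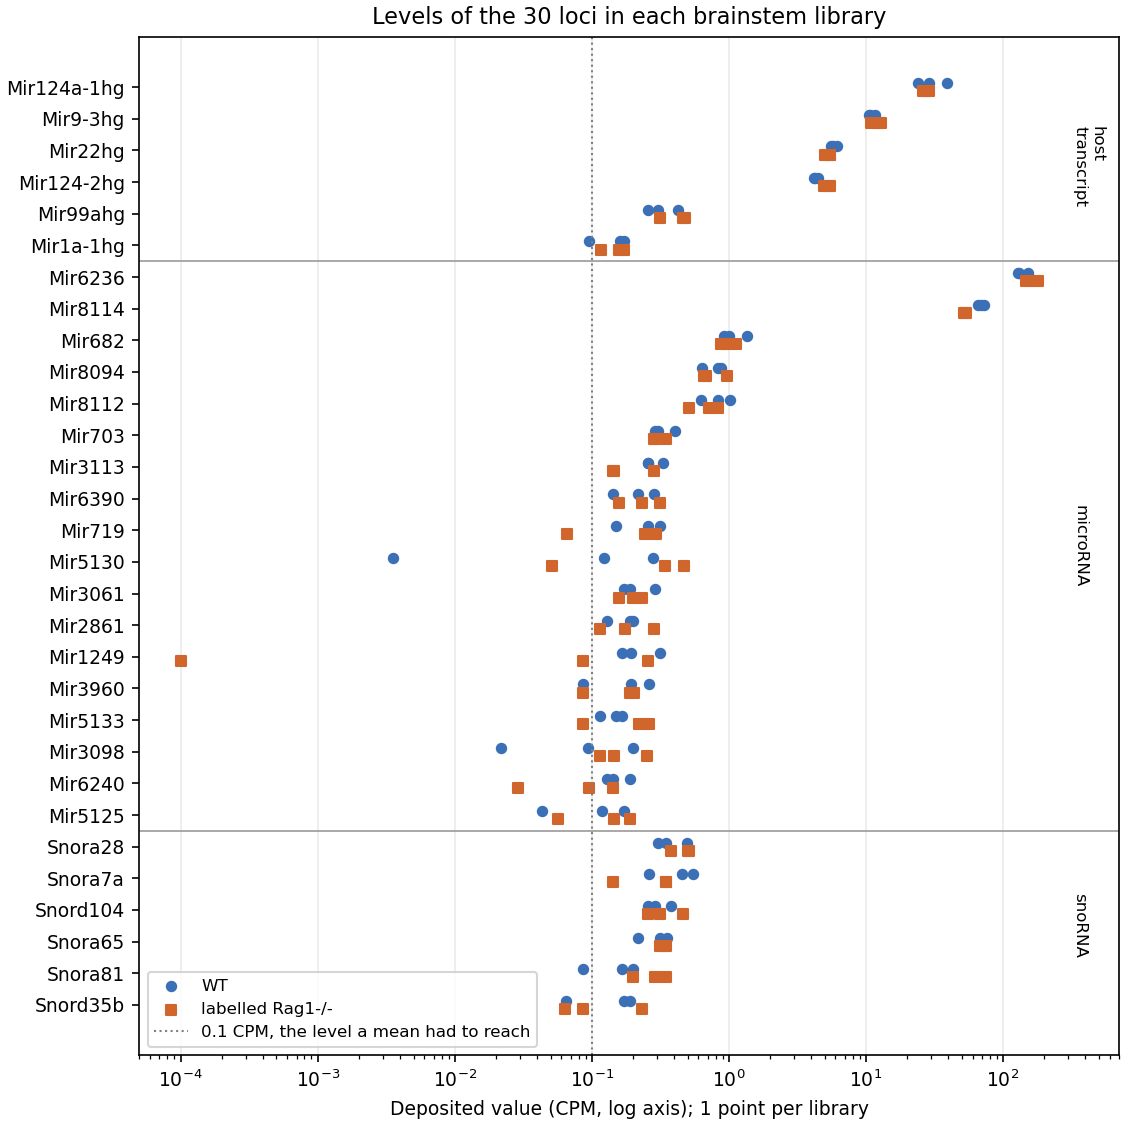
Deposited value in CPM, on a log axis, of each of the 30 loci in each of the 6 libraries, with WT as circles and Rag1-labelled libraries as squares. Only Mir8114, Mir22hg and Mir124-2hg show groups that do not overlap, and the point of Mir1249 at 0.0001 CPM is the lowest value the table can hold.

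To ask whether the loci differed between the genotypes, log2(CPM + 0.1) was fitted with limma-trend over all 16762 rows with a mean of at least 0.1 CPM. On this scale the change of low loci is understated. Of the 30 loci, 0 had an adjusted p under 0.05, as had 0.0477% of all rows (8 rows). At an unadjusted p of at most 0.05, 1 locus was lower (Mir8114; 9.29% of all rows were lower) and 2 were higher (Mir124-2hg and Mir6236; 2.27% of all rows). The groups did not overlap for 2 loci that were lower (Mir8114 and Mir22hg; 14.4% of all rows) and for 1 that was higher (Mir124-2hg; 3.98%). In both directions combined, 10% of the members and 11.6% of all rows had such an unadjusted p. The balance of lower and higher rows across the table depended on the scaling: 1558 rows were lower and 380 higher as deposited, 644 and 854 after quantile normalization, and 728 and 801 after median-of-ratios rescaling. After these scalings Mir8114 was at -0.34 and -0.35, Mir124-2hg at 0.36 and 0.32 and Mir6236 at 0.26 and 0.27. Such shifts are small beside the changes of the 3 loci, so their kept directions are a description only.

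The median log2 fold change was -0.078 for the 18 microRNA rows, 0.089 for the 6 host transcripts and 0.13 for the 6 snoRNA rows, beside -0.051 for all rows tested. With the sign taken alone, 11 microRNA rows were below 0 and 7 above it. These counts and the median include Mir6240, which reached 0.1 CPM through the WT libraries alone. Without it the median was -0.072, 10 microRNA rows were below 0, and the loci with an unadjusted p of at most 0.05 were still the 3 named above. The microRNA median was 0.051 after quantile normalization, so it has no settled sign.

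**Figure D2:**
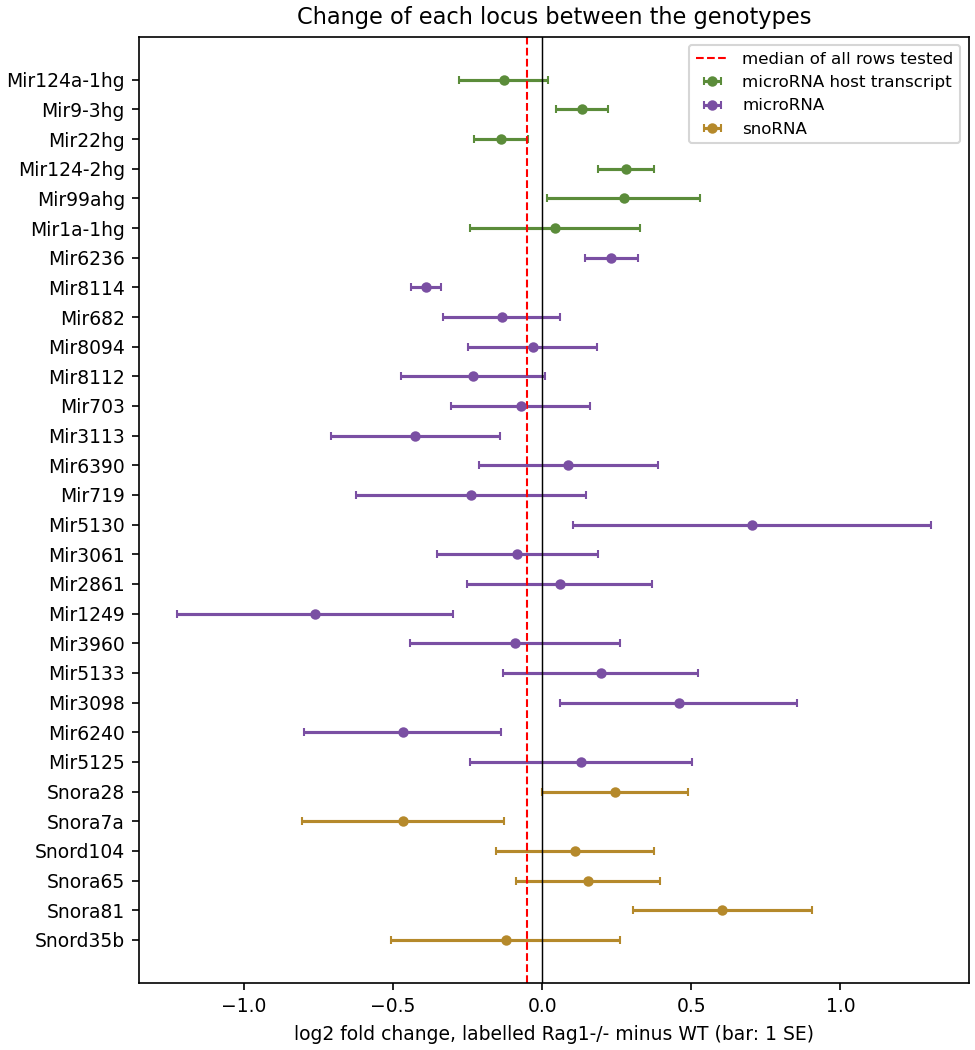
Log2 fold change of each locus, Rag1-labelled libraries minus WT, with bars of 1 standard error from limma-trend. The abundant loci have short bars, and Mir8114 at -0.39 is the locus farthest from 0 relative to its error.

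The host transcripts are long non-coding RNAs from which microRNAs are cut, and 4 of the 6 were well measured. Mir124-2hg (chr3:17789921-17800071, plus strand), which holds a copy of the miR-124 hairpin, was at 4.44, 4.18 and 4.25 CPM in WT and at 5.37, 4.91 and 5.44 CPM in the Rag1-labelled libraries. All 3 Rag1-labelled libraries were above all WT libraries. The means were 4.29 ± 0.13 and 5.24 ± 0.29 CPM (SD, n = 3 each), a log2 fold change of 0.28 (SE 0.094, unadjusted p = 0.0157, limma-trend adjusted p = 0.369), and the exact two-sided permutation p was 0.1, the smallest that 3 against 3 allows. Its adjusted p lay between 0.338 and 0.742 over the alternatives other than the fit with a term for Xist, in which the log2 fold change was 0.29. The unadjusted p exceeded 0.05 without Rag1-labelled replicate 3 (0.0523).

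Mir124a-1hg (chr14:64588115-64593961, plus strand) holds another copy of that hairpin and was the most abundant host transcript, yet did not share the direction. Its values were 28.8, 24.1 and 39.4 CPM in WT and 26.3, 29.0 and 27.4 CPM in the Rag1-labelled libraries. WT replicates spread more widely than the genotypes differed, with WT replicate 3, the library with the pituitary markers, the highest. The log2 fold change was -0.13 (SE 0.15, unadjusted p = 0.412, limma-trend), and it was 0.063 without WT replicate 3. In the fit with a term for Xist, which sets the Rag1-labelled libraries against WT replicate 3 alone, it was -0.52. Without WT replicate 2 it was -0.29, with an unadjusted p of 0.0383 by limma-trend.

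Mir9-3hg (chr7:79500026-79534403, plus strand), whose product miR-9 is printed above, was at 10.5, 11.7 and 10.8 CPM in WT and at 12.9, 12.5 and 10.8 CPM in the Rag1-labelled libraries. The groups overlapped through Rag1-labelled replicate 3, and the log2 fold change was 0.13 (SE 0.087, unadjusted p = 0.160, limma-trend). Without that library the unadjusted p was 0.0384. Mir22hg (chr11:75461539-75466690, plus strand), the transcript of the widely expressed miR-22, was at 5.59, 5.79 and 6.12 CPM in WT and at 4.996, 5.45 and 5.44 CPM in the Rag1-labelled libraries. Every Rag1-labelled library was below every WT library, but by little, and the log2 fold change of -0.14 (SE 0.090) had an unadjusted p of 0.161 by limma-trend. The low host transcripts were Mir99ahg, at 0.259 to 0.475 CPM, and Mir1a-1hg, which holds the hairpins of the muscle microRNAs miR-1 and miR-133 and was at 0.0946 to 0.173 CPM.

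Mir8114 gave the smallest p of all 30 loci. It lies on chr1:153899926-153900036 (plus strand, 111 bases), and was at 65.3, 69.1 and 73.3 CPM in WT and at 51.8, 52.9 and 53.6 CPM in the Rag1-labelled libraries. The lowest WT library was well above the highest Rag1-labelled library. The means were 69.2 ± 4.0 and 52.8 ± 0.89 CPM (SD, n = 3 each), a ratio of 0.762 and a log2 fold change of -0.39 (SE 0.051). The unadjusted p was 4.11e-05 and the limma-trend adjusted p was 0.0575, just over the threshold, with an exact two-sided permutation p of 0.1. Over the 15 alternatives the log2 fold change lay between -0.47, in the fit with a term for Xist, and -0.34. Over the alternatives other than that fit the adjusted p lay between 0.0478 and 0.401. It was under 0.05 only without WT replicate 3, where 24 rows of the table had an adjusted p under 0.05, against 8 with all libraries.

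Mir8114 overlaps the messenger RNA of Glul, the glutamine synthetase of astrocytes, on the same strand, and bases 19 to 111 of its hairpin are an exact run of a coding Glul transcript. Glul was set beside it with the values already known, and was at 1671, 1813 and 1701 CPM in WT and at 1582, 1439 and 1598 CPM in the Rag1-labelled libraries. All 3 Rag1-labelled libraries were below all WT libraries, with a log2 fold change of -0.17 (SE 0.062, unadjusted p = 0.0249, limma-trend adjusted p = 0.385). Per kilobase the levels were close, at 550 CPM for Mir8114 and 585 CPM for Glul on its longest coding transcript. Mir8114 stood at 3.91%, 3.81% and 4.31% of Glul in WT and at 3.28%, 3.68% and 3.35% in the Rag1-labelled libraries, again without overlap. The ratio differed by -0.22 on the log2 scale, with an exact two-sided permutation p of 0.1. Whether the reads on Mir8114 come from Glul was not tested. The astrocyte markers fixed for this work overlapped between the groups and the oligodendrocyte markers did not, as given above. The part of cell composition in these values was not tested.

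Mir6236 (chr9:110281287-110281409, plus strand, 123 bases) was the most abundant microRNA row. It was at 130.0, 129 and 153 CPM in WT and at 146, 158 and 180.0 CPM in the Rag1-labelled libraries. The groups overlapped, since WT replicate 3 was above Rag1-labelled replicate 1. The log2 fold change was 0.23 (SE 0.088, unadjusted p = 0.0277, limma-trend adjusted p = 0.392), with an exact two-sided permutation p of 0.2. The unadjusted p exceeded 0.05 without WT replicate 1 (0.0854), WT replicate 2 (0.0814) or Rag1-labelled replicate 3 (0.112), and without the trend of the fit (0.0756). In the fit with a term for Xist the log2 fold change was 0.074.

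The hairpin of Mir6236 shared no run of 25 bases with a longer GENCODE transcript. The row Rn45s, the precursor of ribosomal RNA, was likewise set beside it with the values known. Rn45s was at 13415, 12359 and 15176 CPM in WT and at 14110, 15760 and 19800 CPM in the Rag1-labelled libraries. Mir6236 stood at 0.969%, 1.04% and 1.01% of Rn45s in WT and at 1.04%, 1.00% and 0.909% in the Rag1-labelled libraries. The share stayed near 1% in every library while the level itself ran from 129 to 180.0 CPM, and the ratio differed between the groups by -0.037 on the log2 scale (exact two-sided permutation p = 0.6). Rn45s had a log2 fold change of 0.27 (SE 0.14, unadjusted p = 0.0939, limma-trend). Whether ribosomal RNA reads fall on Mir6236 was not tested.

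**Figure D3:**
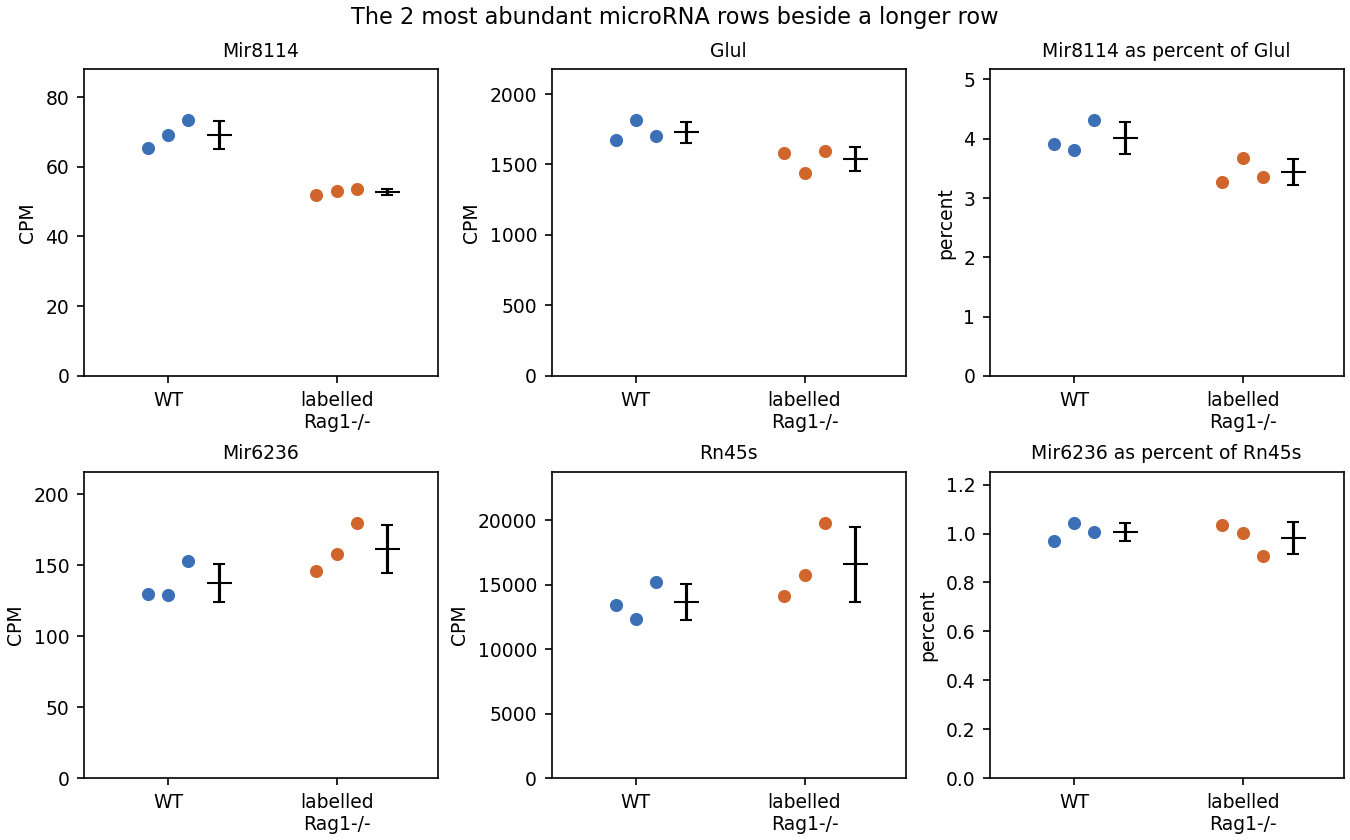
CPM of Mir8114, Glul, Mir6236 and Rn45s in each library, and each microRNA row as a percent of the longer row beside it, with the mean and SD (n = 3) as black bars. Mir8114 and its percent of Glul are lower in every Rag1-labelled library, whereas Mir6236 stays at 0.909% to 1.04% of Rn45s in both groups.

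The remaining microRNA rows were low, and none had an unadjusted p of at most 0.05. Mir682 (chr13:75645046-75645141) lies in an exon of the processed pseudogene Gm4149, which holds all 96 bases of its hairpin. Its hairpin also shares a 48-base run with the ribosomal protein gene Rpl37a. Mir682 was at 1.37, 1.01 and 0.928 CPM in WT and at 1.12, 0.952 and 0.878 CPM in the Rag1-labelled libraries. The groups overlapped (log2 fold change -0.14, SE 0.20). Mir8112 (chr6:71271671-71271801) overlaps Krcc1 on the same strand and was at 0.622, 0.834 and 1.03 CPM in WT and at 0.716, 0.833 and 0.516 CPM in the Rag1-labelled libraries, again with overlap. Its log2 fold change was -0.23 (SE 0.24), whereas that of Krcc1 was 0.22 (SE 0.067, unadjusted p = 0.0103, limma-trend), and the exact two-sided permutation p of their ratio was 0.2. Mir8112 was at -0.080 without WT replicate 3, at -0.064 without Rag1-labelled replicate 3 and at -0.40 without WT replicate 1. Mir703 (chr5:98475556-98475664), with a 47-base run of the translation elongation factor Eef1a1, was at 0.285 to 0.401 CPM over all 6 libraries and stood at 0.366% of Eef1a1 per kilobase.

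The other 7 rows outside a nested host were at 0.0216 to 0.313 CPM in single libraries, with log2 fold changes between -0.47 and 0.46. By GENCODE, Mir3061, Mir3098 and Mir5133 lie in exons of coding transcripts of Ppp2ca, a phosphatase subunit, Mrpl51, a mitochondrial ribosomal protein, and Glce, an enzyme of heparan sulfate synthesis. Mir2861 and Mir3960 lie in exons of a transcript of the kinase gene Cdk9 annotated for nonsense-mediated decay, and Mir6390 in an exon of the long non-coding RNA Gm6145. Mir6240 was at 0.189, 0.129 and 0.144 CPM in WT and at 0.0290, 0.0951 and 0.142 CPM in the Rag1-labelled libraries. Rag1-labelled replicate 3 was within the WT values, and the log2 fold change was -0.47 (SE 0.33). It is the member that reached 0.1 CPM through the WT libraries alone, so its difference is a description.

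Nested loci allowed the change of a locus to be set against that of the gene that holds it. Of the 30 members, 11 lay wholly inside another row on the same strand, 6 microRNA and 5 snoRNA rows. For the ratio of locus to host, 0 of the 11 had an unadjusted p of at most 0.05 (7.14% of the 252 nested rows of the whole table did), and the smallest was 0.0948 for Snora81. The median difference between locus and host was 0.047 on the log2 scale, beside 0.022 over all 252 nested rows. With a library left out it ran from -0.12 to 0.11, so it has no settled sign. Locus and host had the same sign in 5 of the 11 pairs. The hosts had log2 fold changes between -0.16 and 0.086.

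**Figure D4:**
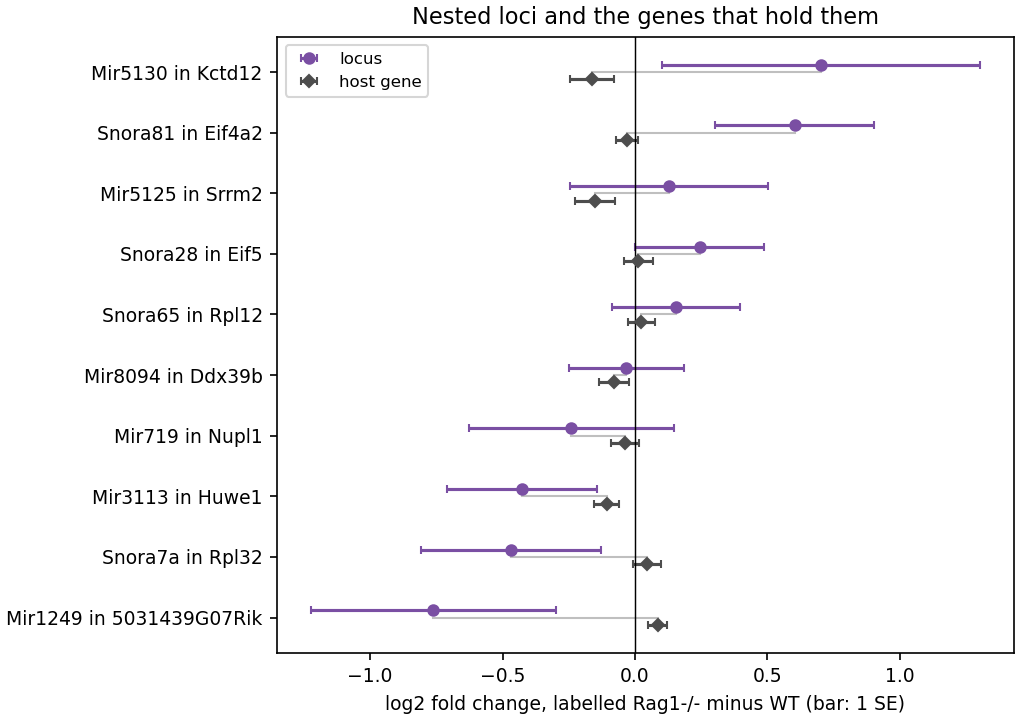
Log2 fold change of 10 of the 11 nested loci (circles) and of their host genes (diamonds), Rag1-labelled libraries minus WT, with bars of 1 standard error. The hosts lie between -0.16 and 0.086 with short bars, whereas the loci range from -0.76 to 0.70 with bars of up to 0.60.

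Among nested microRNA rows the widest gaps were those of Mir1249 and Mir5130, in opposite directions. Mir1249 (chr15:84951526-84951623, minus strand), in an intron of 5031439G07Rik, was at 0.165, 0.194 and 0.316 CPM in WT and at 0.0867, 0.0001 and 0.256 CPM in the Rag1-labelled libraries. The lowest of these values stands for 0 reads, which allows up to 0.0950 CPM in that library, and the groups overlapped. The host was at 203 to 207 CPM in WT and at 216 to 221 CPM in the Rag1-labelled libraries (log2 fold change 0.086, SE 0.036, unadjusted p = 0.0411, limma-trend). The ratio of Mir1249 to it differed by -0.85 (SE 0.52, unadjusted p = 0.152, exact two-sided permutation p = 0.3). The difference was -1.31 without Rag1-labelled replicate 3, with an unadjusted p of 0.0294, and -0.40 without Rag1-labelled replicate 2, the library at 0 reads, with an unadjusted p of 0.398. With a pseudocount of 1 or 0.01 in place of 0.1 it was -0.23 or -1.92. Without Rag1-labelled replicate 3 the fitted change of Mir1249 itself also had an unadjusted p under 0.05 (0.0199).

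Mir5130 (chr14:102982549-102982632, minus strand) lies in an exon of Kctd12, an auxiliary subunit of GABA-B receptors. It was at 0.124, 0.00352 and 0.279 CPM in WT and at 0.467, 0.343 and 0.0511 CPM in the Rag1-labelled libraries, with wide overlap. The ratio to Kctd12 differed by 0.87 (SE 0.66, unadjusted p = 0.237, exact two-sided permutation p = 0.3), by 1.45 without Rag1-labelled replicate 3 (unadjusted p = 0.0451), by 0.42 without WT replicate 2 and by 0.45 without Rag1-labelled replicate 1. With a pseudocount of 1 or 0.01 it differed by 0.33 or 1.6. The fitted change of the locus was 0.70, and was -0.17 in the fit with a term for Xist.

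Mir3113 (chrX:151859562-151859637, plus strand), in an intron of the ubiquitin ligase gene Huwe1, was at 0.330, 0.259 and 0.259 CPM in WT and at 0.144, 0.285 and 0.142 CPM in the Rag1-labelled libraries. Rag1-labelled replicate 2 was above 2 of the WT libraries, so the groups overlapped. Locus and host shared the negative sign, with log2 fold changes of -0.43 (SE 0.28) and -0.11 (SE 0.046, unadjusted p = 0.0472 for Huwe1, limma-trend), and the ratio differed by -0.32 (SE 0.30) with an unadjusted p of 0.327. It differed by -0.53 without Rag1-labelled replicate 2, where Mir3113 was at -0.65, by -0.18 without Rag1-labelled replicate 3 and by -0.0023 with a pseudocount of 1. The other nested microRNA rows were Mir5125 in Srrm2, Mir719 in Nupl1 and Mir8094 in the helicase gene Ddx39b. Their ratios to the host differed by 0.28, -0.20 and 0.047, each by less than its standard error. Mir8094, which lies partly in an exon of a coding transcript of Ddx39b, was at 0.641 to 0.975 CPM and at 20.9% of Ddx39b per kilobase.

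The 6 snoRNA rows had 0 with an unadjusted p of at most 0.05. Snora81 (chr16:23110770-23110933, plus strand), a box H/ACA RNA by name in an intron of the translation initiation factor gene Eif4a2, came closest. It was at 0.165, 0.0863 and 0.201 CPM in WT and at 0.289, 0.349 and 0.199 CPM in the Rag1-labelled libraries. Rag1-labelled replicate 3 was just below WT replicate 3, so the groups overlapped by that pair. The means were 0.151 ± 0.059 and 0.279 ± 0.075 CPM (SD, n = 3 each), a ratio of 1.85 and a log2 fold change of 0.60 (SE 0.30, unadjusted p = 0.0773, limma-trend adjusted p = 0.475). Eif4a2 was at 397 to 419 CPM in WT and at 392 to 410 CPM in the Rag1-labelled libraries, and the ratio differed by 0.63 (SE 0.32, unadjusted p = 0.0948, exact two-sided permutation p = 0.1). These values rest on 4 to 11 reads per library. The unadjusted p of Snora81 itself was 0.0383 after quantile normalization and 0.0409 without the trend of the fit, where that of the ratio was 0.0478. The log2 fold change was 0.31 with the Xist term and 0.40 without WT replicate 2 (unadjusted p = 0.245, limma-trend), and the ratio then differed by 0.30 and 0.42. With a pseudocount of 1 the log2 fold change was 0.15.

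Snora7a (chr6:115807975-115808103, minus strand) lies within an exon of a coding transcript of the ribosomal protein gene Rpl32 and had the opposite sign. It was at 0.260, 0.452 and 0.546 CPM in WT and at 0.347, 0.349 and 0.142 CPM in the Rag1-labelled libraries. The groups overlapped through WT replicate 1, and the ratio to Rpl32 differed by -0.51 (SE 0.35, unadjusted p = 0.194, exact two-sided permutation p = 0.3). Without Rag1-labelled replicate 3 it differed by -0.25, and Snora7a went from -0.47 to -0.17. Snora7a was at -0.71 without WT replicate 1 and at -0.29 without WT replicate 3.

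Snora28 (chr12:111540946-111541066, plus strand), in an intron of the initiation factor gene Eif5, was the most abundant snoRNA row, at 0.496, 0.302 and 0.345 CPM in WT and at 0.376, 0.507 and 0.513 CPM in the Rag1-labelled libraries. Snora65, in an intron of Rpl12, was at 0.354, 0.215 and 0.316 CPM in WT and at 0.347, 0.317 and 0.342 CPM in the Rag1-labelled libraries. Both overlapped between the groups, with log2 fold changes of 0.24 (SE 0.24) and 0.15 (SE 0.24). Without WT replicate 2 these were 0.12 and 0.00051, and without WT replicate 1 they were 0.41 and 0.26. Snord104 (chr11:106500991-106501063, plus strand), the box C/D RNA that lies in no other row, was at 0.257 to 0.462 CPM, and Snord35b was at 0.0635 to 0.231 CPM. Neither separated the groups. Per kilobase Snora81, Snora7a, Snora65 and Snora28 stood at 0.874%, 2.44%, 4.23% and 7.78% of their hosts.

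Rows named for microRNAs known in brain or in immune cells were few. Besides the miR-9 and miR-124 hosts, the brain list held Mir9-2, Mir219a-2 and Mir212, with means of 0.0133, 0.0451 and 0.0320 CPM, under the level for a test. Mir219a-2, whose product is known for oligodendrocyte maturation, had 0 to 3 estimated reads in every library. The immune list held Mir21a, at 0.0945, 0.129 and 0.144 CPM in WT and at 0.0290, 0.0635 and 0.0001 CPM in the Rag1-labelled libraries. These are 4, 6 and 5 reads against 1, 2 and 0, with the WT libraries above the others, but the mean of 0.0767 CPM was under the level and the row was not tested. Of all rows tested, 14.4% were lower without overlap. Under the level, Mir8091, Mir3064, Snora31 and Snord16a separated the other way, Mir8091 with 1, 0 and 1 reads in WT against 2, 4 and 3.

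The enzymes that make and use microRNAs were far better measured than the loci. Of 19 genes listed for microRNA processing and silencing, 18 were tested, and 7 were lower at an unadjusted p of at most 0.05 with 0 higher, beside 9.29% of all rows lower. None had an adjusted p under 0.05 by limma-trend, and the 7 were Ago1, Ago2 and Ago4, Tnrc6b and Tnrc6c, and Ddx5 and Ddx17. Ago4, an Argonaute that binds the mature strand, was at 6.82 ± 0.48 CPM in WT brainstems and 5.50 ± 0.28 CPM in Rag1-labelled ones (SD, n = 3 each; log2 fold change -0.30, SE 0.092, limma-trend adjusted p = 0.342). Ago2, the Argonaute that cleaves targets, was at 70.3 ± 3.1 and 60.8 ± 4.7 CPM (log2 fold change -0.21, SE 0.063). The silencing scaffold Tnrc6b and the helicase Ddx5, the most abundant gene of the list, had log2 fold changes of -0.17 (SE 0.066) and -0.12 (SE 0.049). Drosha, Dgcr8 and Dicer1 had log2 fold changes of -0.077, -0.091 and -0.086 and did not pass.

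The count of 7 depended on the scaling, the variance model and single libraries. After quantile normalization or median-of-ratios rescaling 2 of 18 passed, Ago2 and Ago4, beside 3.84% and 4.34% of all rows lower. It was also 2, again Ago2 and Ago4, without the trend of the fit (7.67% of all rows lower) and when WT replicate 1 (7.04%) or Rag1-labelled replicate 1 (5.20%) was left out. It was 3 with a replicate block (6.59%) or without WT replicate 3 (9.29%), and 4 without Rag1-labelled replicate 2 (8.22%). No count is given for the fit with a term for Xist, which leaves WT replicate 3 alone in its group.

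**Figure D5:**
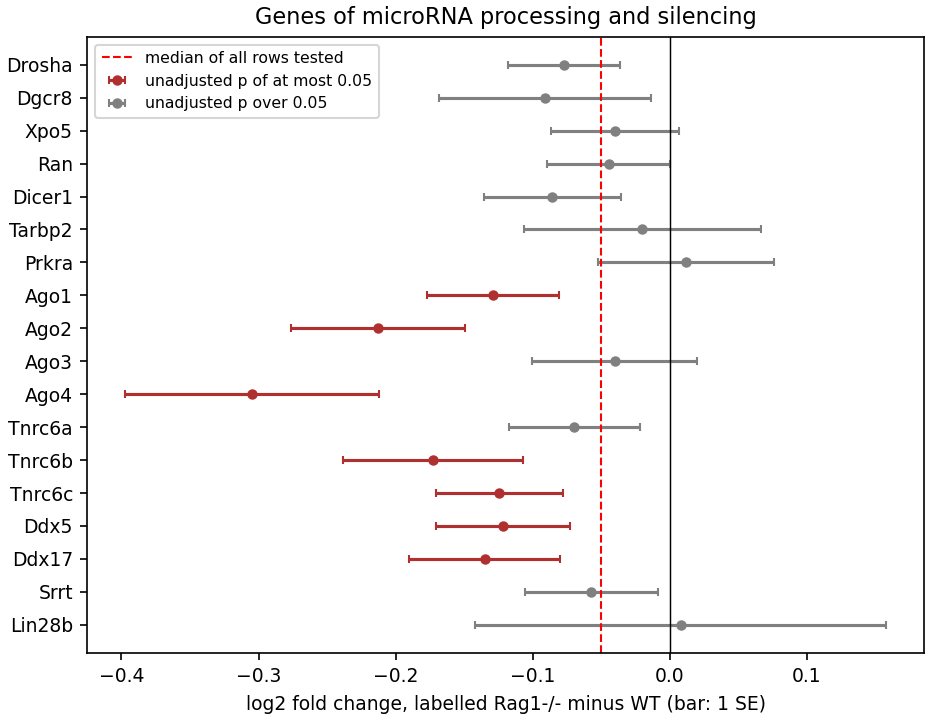
Log2 fold change of the 18 tested genes of microRNA processing and silencing, Rag1-labelled libraries minus WT, with bars of 1 standard error and the median of all rows as a dashed line. Ago4 at -0.30 and Ago2 at -0.21 lie farthest from that median.

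The lists for snoRNA particles and snoRNA host genes held 1 gene each that passed at the unadjusted threshold. Of 16 genes for the core and assembly of snoRNPs, 1 was lower at an unadjusted p of at most 0.05 and 0 were higher, beside 9.29% of all rows lower and 2.27% higher. It was Ruvbl1, an ATPase of particle assembly, at 22.2 ± 0.82 and 19.9 ± 0.68 CPM (SD, n = 3 each, log2 fold change -0.16, SE 0.057, unadjusted p = 0.0206, limma-trend). Ruvbl1 did not pass after either rescaling, without WT replicate 1 or without Rag1-labelled replicate 2. Fibrillarin (Fbl), the methyltransferase of box C/D particles, and Dkc1, the pseudouridine synthase of box H/ACA particles, had log2 fold changes of 0.012 (SE 0.052) and -0.069 (SE 0.054). The most abundant gene of this list was Snu13, at 79.6 ± 2.4 and 80.1 ± 2.9 CPM (SD, n = 3 each). Of 22 tested snoRNA host genes, 1 was lower and 0 higher at that threshold, beside the same shares of all rows. It was Snhg17, at 2.61 ± 0.30 and 1.89 ± 0.15 CPM (SD, n = 3 each; log2 fold change -0.44, SE 0.14, unadjusted p = 0.0111, limma-trend adjusted p = 0.354). Snhg11, the most abundant of them, was at 233 ± 42 and 221 ± 17 CPM and did not pass. After quantile normalization 1 host gene was lower and 1 higher (3.84% and 5.10% of all rows), and after median-of-ratios rescaling 1 was lower (4.34%). The fit with a term for Xist is left out of these counts.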

How the data were processed

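Total RNA of 6 brainstems was sequenced on an Illumina HiSeq. The authors demultiplexed with bcl2fastq, aligned to mm10 with STAR 2.5.3a, counted on RefSeq transcripts in Partek Flow and deposited CPM values with an offset of 0.0001. Strand setting, multi-mapping rule and gene filter are not given in the sources used here. Between 85.2% and 86.4% of low values were whole reads within 0.1 read, so no count test was run. log2(CPM + 0.1) was fitted with limma-trend (limma 3.58.1, R 4.3.3) over 16762 rows, with Benjamini-Hochberg adjustment, after a check on simulated data. The 1296 rows under 0.1 CPM were not tested. For ratios, locus minus host was fitted over the 252 nested rows. The host is the shortest row holding the locus on its strand. The host of 1 nested locus is not reported here. Ends are 1 base before the deposited stop. Exact two-sided permutation tests used scipy 1.17.1. The members, lists and alternatives were chosen with earlier results of these data known. Named loci are the 8 smallest p, the 6 most abundant microRNA and snoRNA rows, the 6 smallest ratio p, their hosts, the rows next to the level, and the listed genes that passed or were most abundant. Others named were chosen after their values were seen. The alternatives were other pseudocounts, scalings, filters and variance models, a replicate block, an Xist term, the longest host and each library left out.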

Additional observations from a re-analysis of the deposited data

How the results depend on the processing

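Replicate numbers are shared by the genotypes, but same-numbered libraries deviated together with correlations of 0.0926, -0.220 and -0.0183, so they share only a number. With a replicate block, 3 loci had an unadjusted p of at most 0.05 and 0 an adjusted p under 0.05, as without it, while calls over all rows fell from 8 to 3 at an adjusted p under 0.05. The count of loci with an adjusted p under 0.05 was 0 to 1 with a library left out, 1 (Mir8114) without WT replicate 3, where 24 rows of the table had one. No counts are given for the fit with an Xist term, which leaves WT replicate 3 alone in its group. The count at an unadjusted p was 2 to 3 with a library left out, but not of the same loci: without Rag1-labelled replicate 3 they were Mir1249, Mir8114 and Mir9-3hg, and without WT replicate 2 Mir124-2hg, Mir124a-1hg and Mir8114. It was 4 after quantile normalization, with Snora81 added, and 3 without the limma trend, with Snora81 in place of Mir6236. Leaving out Mir6240, an alternative chosen after seeing the data, kept both counts. The microRNA median lay between -0.18 and 0.029 with a library left out, the snoRNA median between 0.012 and 0.25, and the median difference from the host between -0.12 and 0.11. Of 11 nested loci, 1 ratio (Snora81) passed without the limma trend, and 0 to 2 passed with a library left out, 2 (Mir1249 and Mir5130) without Rag1-labelled replicate 3. No snoRNA row reached 1 CPM, so that filter gave no snoRNA median.

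The sign turned under at least 1 alternative for 15 of the 30 loci, 13 of them under 1 CPM. With the Xist term Mir5130, at 0.70 without it, was at -0.17, Mir3098, at 0.46 without it, at -0.19, Mir682 at 0.071 and Mir703 at 0.069. After quantile normalization Mir703 was at 0.056 and Mir8094 at 0.095, and after median-of-ratios rescaling Mir8094 was at 0.0056. With a library left out, Mir124a-1hg ran from -0.29 to 0.063, Mir682 from -0.24 to 0.016, Mir703 from -0.14 to 0.043, Mir8094 from -0.19 to 0.059, Snord104 from -0.071 to 0.26 and Snord35b from -0.43 to 0.077. The others that turned were Mir719, Mir3061, Mir5125, Mir2861, Mir3960, Mir6390 and Mir1a-1hg. The cause was not tested. Loci under 1 CPM, with a median standard error of 0.30, limit what could be seen.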
